A study of Mus musculus with 5 samples.

Results

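The Id genes and the core BMP pathway were followed here through 10 members: the 4 Id paralogs Id1, Id2, Id3 and Id4, the ligand gene Bmp4, the receptor genes Bmpr1a and Bmpr2, and the SMAD genes Smad1, Smad5 and Smad6. They were chosen by name, and every probe whose platform annotation carried one of these symbols was taken. The 10 were among 16593 named genes on the array and had 18 of its 25697 probes, of which 15 entered the test. Single-colour Illumina mouse bead arrays had been hybridised with RNA of 46C, a mouse embryonic stem cell line in which green fluorescent protein reports on Sox1, a neural gene. The N2B27 48 hr group (n = 3) held cells that were trypsinised, washed and replated for 48 hr in N2B27, a defined serum-free medium, with nothing added. The ESC group (n = 2), labelled pluripotent, held cells kept without feeders or serum in N2B27 to which BMP, the cytokine LIF and PD173074, an inhibitor of FGF receptors (100 nM), had been added. All 5 samples were of this 1 reporter line. BMP, LIF and the inhibitor were withdrawn together and the cells were replated, so the effects of these steps cannot be told apart.

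BMP ligands bind a complex of type I and type II receptors, among them the products of Bmpr1a and Bmpr2, which phosphorylates the signal-transducing SMADs encoded by Smad1 and Smad5. These enter the nucleus with Smad4 and switch on target genes, of which the Id genes are the best known, while the inhibitory SMAD encoded by Smad6 is induced as feedback and blocks the pathway at the receptor. Id proteins are helix-loop-helix proteins without a basic region. They pair with E proteins and keep these from binding DNA with tissue-specific partners. In mouse embryonic stem cells BMP is known to act with LIF to sustain self-renewal in serum-free medium, in part through Id genes.

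The mean signal was 187 to 250 on the N2B27 48 hr arrays, where replicate 1 was the dimmest, and 242 to 264 on the ESC arrays, and 42.1% to 47.5% of probes were detected per array. A probe was called detected on an array at a detection p under 0.05, which corresponded to signals above 65.1 to 68.8, and background was still contained in all deposited signals. The labelled cell type was checked against 11 markers of pluripotent cells, all of which were tested, with 4 higher and 7 lower in N2B27 48 hr. Klf4 was tested only through ESC arrays and 1 other only through N2B27 48 hr arrays, so detection largely fixed their directions. Nanog and Fgf5, markers of the naive and the later epiblast state, changed by -5.07 and 5.16 on the log2 scale, while Pou5f1, which encodes Oct4, changed by -0.44. The probes of the neural genes Sox1 and Pax6 were detected on no array.

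Promoter sequences are shown for 3 of the Id genes and for Smad6, whose transcripts all changed and in which letters bound by SMADs can be looked for. Of the 10 members, 9 had an entry in the RefSeq promoter table (build GRCm38.p6), and Id1 had none. Each window ran from 250 bases before the start of the gene to 50 after it. The window of Id2 was chr12:25096043-25096342 on the minus strand, that of Id3 chr4:136143572-136143871 on the plus strand, that of Id4 chr13:48260866-48261165 on the plus strand and that of Smad6 chr9:64022010-64022309 on the minus strand. Each is printed along the strand of its gene, with capitals for GGCGCC, a GC-rich motif known to be bound by BMP-activated SMADs, and for GTCT on either strand, the SMAD box.
Id2: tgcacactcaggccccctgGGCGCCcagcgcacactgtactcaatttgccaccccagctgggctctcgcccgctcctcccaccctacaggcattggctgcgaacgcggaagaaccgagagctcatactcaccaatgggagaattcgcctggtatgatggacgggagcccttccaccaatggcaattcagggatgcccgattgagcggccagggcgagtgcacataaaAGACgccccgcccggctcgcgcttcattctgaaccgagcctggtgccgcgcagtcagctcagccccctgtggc
Id3: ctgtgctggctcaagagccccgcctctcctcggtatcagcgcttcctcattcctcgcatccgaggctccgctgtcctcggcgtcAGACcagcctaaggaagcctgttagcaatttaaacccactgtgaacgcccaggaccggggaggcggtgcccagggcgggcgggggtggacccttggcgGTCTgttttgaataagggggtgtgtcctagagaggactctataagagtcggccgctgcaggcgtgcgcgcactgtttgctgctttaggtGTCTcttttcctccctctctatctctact
Id4: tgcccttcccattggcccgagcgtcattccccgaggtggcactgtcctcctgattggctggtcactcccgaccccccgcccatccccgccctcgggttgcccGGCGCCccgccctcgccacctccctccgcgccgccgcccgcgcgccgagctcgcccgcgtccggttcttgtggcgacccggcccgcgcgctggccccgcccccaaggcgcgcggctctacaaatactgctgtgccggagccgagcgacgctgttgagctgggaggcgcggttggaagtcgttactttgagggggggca
Smad6: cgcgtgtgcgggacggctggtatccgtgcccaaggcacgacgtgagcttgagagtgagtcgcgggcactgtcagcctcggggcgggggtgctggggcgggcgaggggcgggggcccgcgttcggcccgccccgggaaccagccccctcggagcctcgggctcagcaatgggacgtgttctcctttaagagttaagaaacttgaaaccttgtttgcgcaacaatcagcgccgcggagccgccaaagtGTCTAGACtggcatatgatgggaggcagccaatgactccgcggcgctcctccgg
GGCGCC stood once in the window of Id2, beginning at -231 from the start site, and once in that of Id4, beginning at -148, and was not among the letters of the Id3 and Smad6 windows. Of all 32851 promoter windows 11.9% held it, and so did 6 of the 11 windows of members, which belonged to 5 genes. Smad5 had overlapping windows that shared a site. GC content was not taken into account, so the comparison does not show an enrichment. The SMAD box was present in 88.0% of all windows, so its presence in Id2, Id3 and Smad6 separates them from few others. In Smad6 a pair of boxes joined into the palindrome GTCTAGAC, beginning at -4 and thus spanning the start site. That palindrome was searched after it had been seen there, and it occurred in 0.213% of all windows. GGCGCC followed after 5 bases by GTCT, on either strand, was in 0 of the 11 windows of members. It was in 0.0731% of all windows, so its absence separates the members from few others. GGCGCC overlapped no SMAD box in the members' windows. A match describes the letters only.

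The Id paralogs went different ways after 48 hr in N2B27. Id1, Id2 and Id4 fell to the level of the background or close to it, whereas Id3 rose. In each of these 4 genes the brightest probe passed the test. In Id1, Id2 and Id3 no value of one group lay within the range of the other, as in 63.2% of all probes tested. Id4 was tested through the ESC arrays alone, so its direction and lack of overlap were fixed by the detection filter. Less RNA per cell and fewer cells carrying a transcript cannot be told apart in such bulk samples.

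Id1, the paralog most often used as a readout of BMP signalling, had signals of 64.8, 60.2 and 69.8 on the N2B27 48 hr arrays, against 188 and 183 on the ESC arrays. The ESC arrays stood far above the others, and only N2B27 48 hr replicate 3 reached detection. The log2 change was -2.35 ± 0.160 (SE, n = 3 and 2, limma adjusted p = 8.3e-07), or at least 4.80-fold lower. Here and below a fold written as at least is a lower bound, since the probe was undetected on some or all arrays of the dimmer group. Each array of that group was then taken at its own value, or at the lowest value any detected probe had there if that was higher.

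Id2, which is also expressed widely in early embryonic ectoderm and in lymphoid cells, had a bright and a dim probe. The bright probe gave signals of 70.4, 63.5 and 71.7 in N2B27 48 hr, against 188 and 213 in ESC. It was detected on 2 of the 3 N2B27 48 hr arrays, and its log2 change was -2.30 ± 0.199 (adjusted p = 5.3e-06), or at least 4.78-fold lower. The dim probe, at 60.1, 59.1 and 61.3 in N2B27 48 hr and 66.0 and 75.7 in ESC, lay near background in both groups. It did not pass the test (-0.36 ± 0.143, adjusted p = 0.0658), except under median scaling and with array weights (0.0476 and 0.0289). No N2B27 48 hr array detected it and both ESC arrays did, so its direction was fixed by the filter and adds nothing to that of the bright probe.

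Id4, a paralog best known from neural progenitors and germline stem cells, had signals of 52.4, 57.2 and 57.0 in N2B27 48 hr, against 135 and 115 in ESC. None of the N2B27 48 hr arrays detected it, while both ESC arrays did. The log2 change was -1.91 ± 0.146 (adjusted p = 2.1e-06), or at least 2.85-fold lower. Only the ESC arrays brought this probe into the test, so its direction was fixed by the filter.

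Id3, like Id1 a BMP target in many cell types, went the opposite way. Its signals were 95.9, 108 and 103 in N2B27 48 hr, against 73.5 and 73.2 in ESC, and all 5 arrays detected it. The ESC values were just above detection, and every N2B27 48 hr array was above both of them, including the dimmest one. The log2 change was 1.18 ± 0.158 (adjusted p = 1.4e-04), or 2.26-fold higher, with a 95% interval of 0.83 to 1.53. Among the 12605 probes tested, 96.7% had a lower change than Id3. The sizes depended on how background was treated: without background correction the log2 changes of Id1, Id2, Id3 and Id4 were -1.18, -1.21, 0.51 and -0.87, all still past the test.

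**Figure D1:**
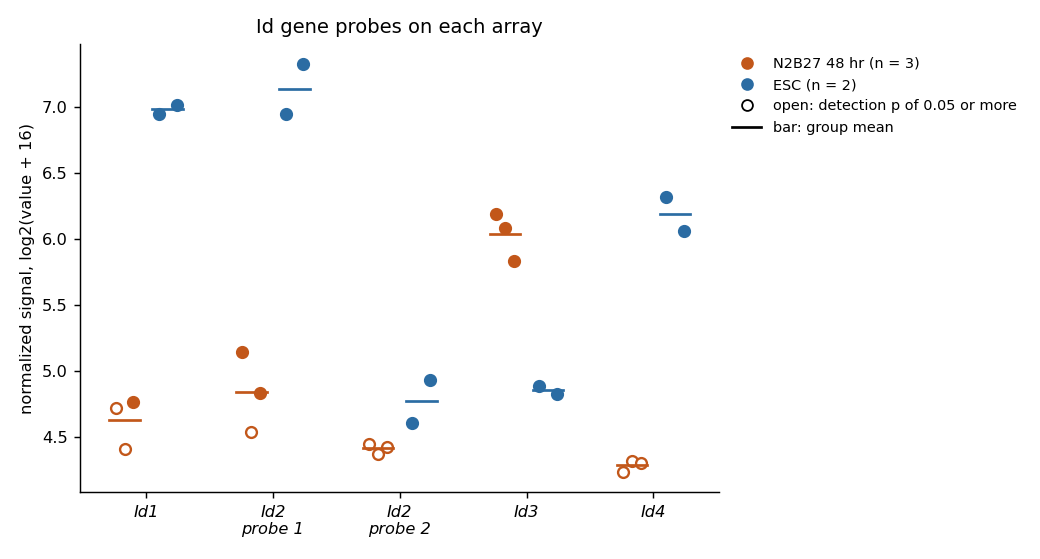
Normalized signal of each Id probe on each array, as log2(value + 16), with N2B27 48 hr left of ESC, open symbols for arrays on which the probe was undetected and bars for group means. Id1, the bright Id2 probe and Id4 average 4.63, 4.84 and 4.28 in N2B27 48 hr and 6.98, 7.14 and 6.19 in ESC, while Id3 averages 6.04 and 4.86.

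By the smallest distance between centred log2 values over the 5 arrays, the genes most like Id1 were Arih2, Adap1 and Ccpg1, with distances of 0.230, 0.233 and 0.236 on the log2 scale. Those most like Id2 were Mapt, Tekt1 and Id1 itself (0.246, 0.303 and 0.348). Id4 was nearest to Gata3, Gss and Denn2b (0.167, 0.169 and 0.182), and Id3 to Atxn7l2, Bcl2l11 and Ndufaf7 (0.0850, 0.0991 and 0.107). With 5 arrays in 2 groups, such likeness mostly reflects a change of like size between the groups, and it is given without a p-value.

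Bmp4, the ligand gene, gave signals of 158, 191 and 137 in N2B27 48 hr, against 137 and 131 in ESC, and was detected on all arrays. The deposited signals overlapped, with N2B27 48 hr replicate 3 at the level of ESC. After normalization the values were 7.32, 7.23 and 6.43 in N2B27 48 hr and 6.36 in both ESC arrays on the log2(value + 16) scale, so replicate 3 stayed close to ESC. The log2 change was 0.64 ± 0.231 (adjusted p = 0.0451), near the threshold. The call was lost without N2B27 48 hr replicate 1 (0.48, adjusted p = 0.133) or replicate 2 (0.52, adjusted p = 0.159), and without either ESC array (adjusted p = 0.188 and 0.190). It was also lost under median scaling (0.41, adjusted p = 0.292), cyclic loess (0.0657), without the detection filter (0.0510) and without the variance trend (0.0653). Median scaling shifts all arrays to a common median. Under it the log2 change over all genes had a median of -0.106, against 0.0488 with quantile normalization. Relative to these medians, Bmp4 changed by 0.51 under median scaling and by 0.59 with quantile normalization.

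The receptor genes showed no change past the test. Bmpr1a, the type I receptor gene, had signals of 123, 168 and 266 in N2B27 48 hr and 211 and 172 in ESC by its brighter probe, whose groups overlapped. Its log2 change was 0.12 ± 0.217 (adjusted p = 0.693), with a 95% interval of -0.36 to 0.60 that leaves room for a change of moderate size either way. The other probe gave signals of 95.0, 110 and 124 in N2B27 48 hr and 126 and 111 in ESC, a log2 change of 0.10 (adjusted p = 0.606) and a narrower interval, -0.22 to 0.43. Both probes turned slightly negative under median scaling (-0.12 and -0.13, adjusted p = 0.811 and 0.775). Bmpr2, the type II receptor gene, had 2 probes, and neither was detected on any array. Their signals were 50.1 to 56.4 in N2B27 48 hr and 50.4 to 60.6 in ESC, so they entered no test, and a probe at background does not show that the gene is silent.

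No probe of the signal-transducing SMAD genes passed the test. Smad1 by its brightest probe had signals of 108, 134 and 156 in N2B27 48 hr and 152 and 142 in ESC, with overlapping groups and a log2 change of 0.026 ± 0.136 (adjusted p = 0.897, 95% interval -0.27 to 0.33). A second probe of Smad1, at 95.1, 128 and 162 in N2B27 48 hr and 120 and 114 in ESC, changed by 0.41 ± 0.179 (adjusted p = 0.0853). It passed without N2B27 48 hr replicate 1 (0.57, adjusted p = 0.0206) and with array weights (0.40, adjusted p = 0.0270). The last probe of Smad1 was undetected on all arrays and was not tested. Smad1 by its brightest probe turned to -0.19 under median scaling and -0.049 under cyclic loess, and passed in neither.

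Smad5, whose product acts beside that of Smad1, had 3 probes, all detected on every array. The brightest gave signals of 106, 162 and 177 in N2B27 48 hr and 146 and 120 in ESC, the low one being N2B27 48 hr replicate 1, the dimmest array. Its log2 change was 0.46 ± 0.180 (adjusted p = 0.0615), and it passed without N2B27 48 hr replicate 1 (0.63, adjusted p = 0.0111) and with array weights (0.52, adjusted p = 0.0091). The other probes changed by 0.33 ± 0.206 and 0.41 ± 0.169 (adjusted p = 0.228 and 0.0704), and the dimmest of the 3 passed without N2B27 48 hr replicate 2 (0.55, adjusted p = 0.0304). All 3 were above 0 under each normalization tried.

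Smad6, the inhibitory SMAD gene and feedback target with the palindrome at its start, fell by both of its probes. One probe had signals of 62.0, 64.8 and 64.8 in N2B27 48 hr, against 115 and 109 in ESC. It was undetected on all N2B27 48 hr arrays and entered the test through ESC alone, with a log2 change of -1.38 ± 0.137 (adjusted p = 1.5e-05), or at least 2.40-fold lower. The other probe, detected on all 5 arrays, had signals of 69.3, 68.9 and 72.5 in N2B27 48 hr, against 86.4 and 96.7 in ESC. It changed by -0.56 ± 0.159 (adjusted p = 0.0153), or 1.47-fold, and did not pass when ESC replicate 2 was left out (-0.40, adjusted p = 0.180) or N2B27 48 hr replicate 2 (-0.50, adjusted p = 0.0573), nor without the detection filter (0.0502). The groups did not overlap in either probe, as in 63.2% of all probes tested. For the probe tested through ESC alone, direction and lack of overlap were fixed by the filter.

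**Figure D2:**
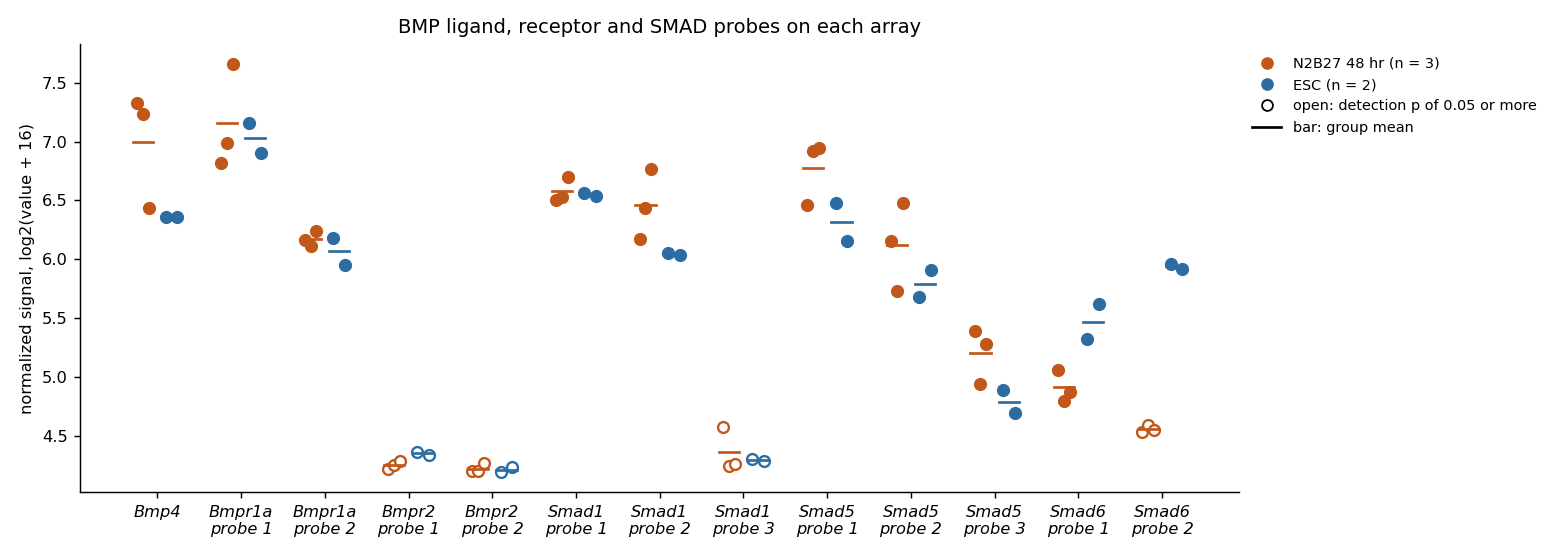
Normalized signal of each Bmp4, receptor and SMAD probe on each array, as log2(value + 16), with N2B27 48 hr left of ESC, open symbols for arrays on which the probe was undetected and bars for group means. Both Smad6 probes lie lower in N2B27 48 hr, and the Bmp4 probe has 2 N2B27 48 hr arrays at 7.32 and 7.23 and the third at 6.43, near the ESC arrays.

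Counted over the 15 member probes tested, 2 rose, 5 fell and 8 did not pass. Of all probes tested 43.1% changed, 23.0% upward and 20.0% downward, so the number of members called was near the background. Without ESC replicate 1 or without ESC replicate 2, 1 member probe rose, that of Id3, in place of 2. Changes of at least 2-fold were seen downward in 4 member probes and upward in 1, beside 6.77% and 4.71% of all probes tested. The groups did not overlap in 10 of the 15, against 63.2% of all probes tested. The median log2 change over the 15 was 0.10. It was -0.034 without N2B27 48 hr replicate 3, -0.0046 without ESC replicate 2 and 0.22 without ESC replicate 1. Under median scaling it was -0.13, so it has no settled sign. With each gene taken by its brightest tested probe, the median was 0.026 over the 9 members tested, beside 0.0488 over all genes. Of the 15, 3 were tested only because both ESC arrays detected them, and such a probe had to be lower in N2B27 48 hr.

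**Figure D3:**
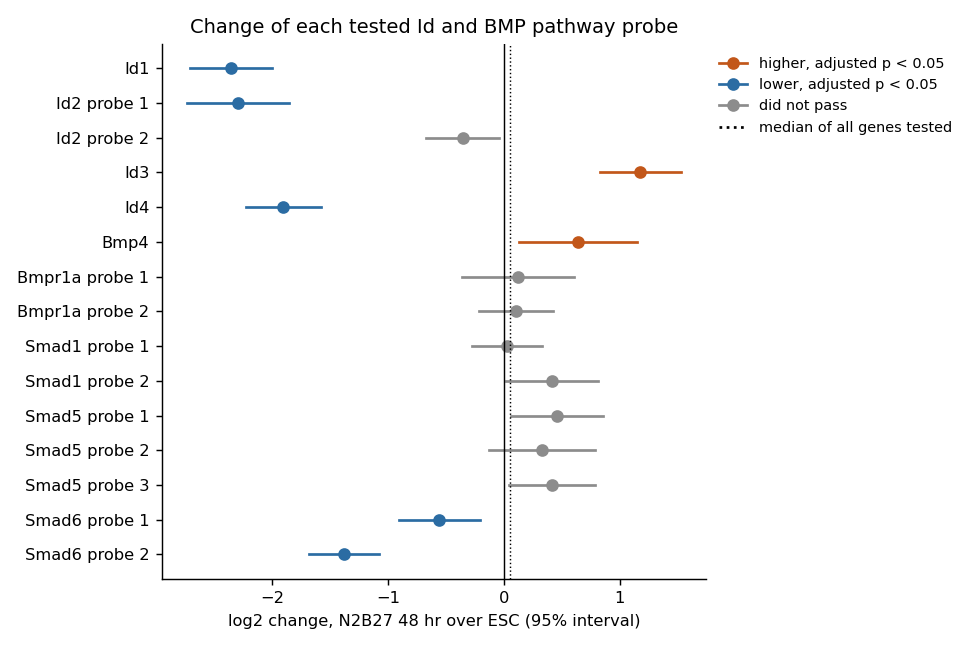
Log2 change of each tested member probe, N2B27 48 hr over ESC, with its 95% interval from limma, coloured by direction where the adjusted p was under 0.05 and grey otherwise. Id1, Id2 by its bright probe and Id4 lie at -2.35, -2.30 and -1.91 and Id3 at 1.18, while the receptor and signal-transducing SMAD probes lie between 0.026 and 0.46.

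In the rest of the pathway, most ligand genes were below detection. Of 16 other BMP-family ligand genes with a probe 3 were tested, of which 0 rose and 2 fell, with a median log2 change of -0.52. Of all genes tested, 23.8% rose and 21.4% fell, with a median of 0.0488. These shares are the background for each gene list below as well. Gdf3, which encodes a TGF-beta family ligand of pluripotent cells, fell by 0.65 and Bmp8a by 0.52 on the log2 scale (adjusted p = 0.0167 and 0.0152). Both calls were lost without ESC replicate 1 (adjusted p = 0.123 and 0.0503) or ESC replicate 2 (0.0983 and 0.149), and without N2B27 48 hr replicate 3 the change of Gdf3 was -0.41. Bmp7 did not pass (-0.26, adjusted p = 0.157), and Bmp2 was detected on no array.

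Among 10 other receptor and coreceptor genes with a probe, 6 were tested, and 0 rose and 2 fell, both of them coreceptor genes (median 0.19). Eng, which encodes the coreceptor endoglin, had signals of 82.8, 92.9 and 95.0 in N2B27 48 hr, against 172 and 178 in ESC, and was 2.27-fold lower (-1.18 ± 0.142, adjusted p = 6.3e-05). Rgma, a member of the repulsive guidance molecule family of BMP coreceptors, had a lower bound of 2.20-fold on its fall (adjusted p = 0.00372). The type I receptor genes Acvr1 and Bmpr1b did not pass (0.11 and 0.34, adjusted p = 0.589 and 0.0951). The tested probe of Bmpr1b was undetected on both ESC arrays. A further Bmpr1b probe, detected on ESC replicate 2 alone, was not tested.

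Of 11 tested genes for other SMADs and their regulators, 2 rose and 2 fell (median 0.21). Nedd4l, a ubiquitin ligase gene, had signals of 128, 168 and 186 in N2B27 48 hr, against 467 and 454 in ESC, and was 2.94-fold lower (-1.55 ± 0.116, adjusted p = 1.6e-06). Ppm1a, which encodes a phosphatase reported to act on SMADs, rose by all 3 of its probes (0.65, 0.57 and 0.48), but its brightest probe did not pass under median scaling (0.45, adjusted p = 0.224). Tob1, an antiproliferative gene whose product restrains BMP SMADs, fell by 0.55 (adjusted p = 0.0127), a call lost without ESC replicate 1 (adjusted p = 0.162). The rise of Skil (0.39, adjusted p = 0.0265), a SMAD corepressor gene, was lost without either ESC array (adjusted p = 0.115 and 0.169), without N2B27 48 hr replicate 2 (0.0928) and under median scaling (0.744). Smad4, the common partner, did not pass (0.28, adjusted p = 0.0842). It passed with array weights (adjusted p = 0.0159) and without N2B27 48 hr replicate 1 (0.39, adjusted p = 0.0116).

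Of 21 genes for extracellular antagonists and modifiers with a probe, 7 were tested, and 1 rose and 2 fell (median -0.12). The follistatin gene Fst, whose product binds activins and some BMPs, rose by 0.55 (adjusted p = 0.0147). It did not pass when either ESC array was left out (adjusted p = 0.0551 and 0.158) or under median scaling (0.381). Fstl1, a secreted follistatin-like gene, was 2.09-fold lower (-1.06 ± 0.204, adjusted p = 0.00166), with signals of 72.3, 90.9 and 112 in N2B27 48 hr, against 165 and 154 in ESC. Twsg1, which modulates chordin and BMP, fell by 0.32 (adjusted p = 0.0338), a call lost in each of the fits that left out ESC replicate 1 or 2 (adjusted p = 0.209 and 0.136) or N2B27 48 hr replicate 1 or 2 (0.0767 and 0.0990). The noggin gene Nog, detected on 1 array of each group, did not pass (-0.036, adjusted p = 0.877).

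Of 22 other genes taken as BMP-responsive and having a probe, 8 were tested, and 1 rose and 5 fell (median -0.61). Over all genes tested 23.8% rose and 21.4% fell (median 0.0488). Of the 5 that fell, 3 (Tbx3, Gata3 and Gata2) had brightest probes tested only because both ESC arrays detected them. Such probes had to be lower in N2B27 48 hr, and without these 3 genes 2 fell. The genes not tested were too dim, among them Bambi, Msx2 and Smad9, and over all 22 without the detection filter the median was -0.056. Tbx3, a T-box gene of the naive pluripotency network, had signals of 57.4, 51.9 and 53.6 in N2B27 48 hr, against 516 and 448 in ESC, and was at least 15.0-fold lower (-4.32 ± 0.141, adjusted p = 4.5e-09). Tbx3 fell by its other probes as well (log2 change -4.09 and -1.24). Gata3, whose product drives trophoblast genes, was undetected on all N2B27 48 hr arrays and at least 2.62-fold lower (adjusted p = 2.3e-06), and Tfap2a, an AP-2 factor of surface ectoderm, was 1.89-fold lower (-0.92, adjusted p = 9.1e-04). Gata2 and Sall4 also fell (-0.64 and -0.57, adjusted p = 0.00463 and 0.00363). Without ESC replicate 2 neither of them passed (adjusted p = 0.0533 and 0.0838), and 3 genes fell in place of 5. Msx1, a homeobox gene and common BMP target, rose at least 1.60-fold (adjusted p = 0.0166), but not without ESC replicate 1 or 2 (adjusted p = 0.0684 and 0.156), which left 0 genes that rose. Tbx3, Gata2 and Gata3 answer to other signals too, so the count does not isolate BMP.

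Few of the partners of Id proteins could be tested. Of the E protein genes, Tcf12 had signals of 93.3, 108 and 137 in N2B27 48 hr, against 90.0 and 86.3 in ESC, and was 1.78-fold higher (0.84 ± 0.160, adjusted p = 0.00162), while Tcf4 did not pass (-0.053, adjusted p = 0.806). Of 25 tissue-specific basic helix-loop-helix (bHLH) genes with a probe, 20 were not tested, among them Neurog2, Myod1 and Twist1. Of the 5 tested 0 rose and 3 fell (median -0.49). Msc, the gene of the bHLH repressor musculin, had signals of 66.1, 65.7 and 69.6 in N2B27 48 hr, against 782 and 607 in ESC, and was at least 21.4-fold lower (adjusted p = 4.1e-09), with detection on 2 of the 3 N2B27 48 hr arrays. Tcf15, a bHLH gene of somites that is also expressed in pluripotent cells and whose product is known to be held by Id proteins, fell by 0.78 (adjusted p = 0.0375), and Olig1, a gene of the oligodendrocyte lineage, fell at least 1.38-fold (adjusted p = 0.0141). Both calls were lost without ESC replicate 1 (adjusted p = 0.203 and 0.109) or ESC replicate 2 (0.141 and 0.0714), and without N2B27 48 hr replicate 3 the change of Tcf15 was -0.45. Olig1 was tested through the ESC arrays alone. Of the Hes and Hey repressor genes, 3 of 9 were tested, and 1 rose and 1 fell. Hes1, a Notch target that also responds to BMP and LIF, was 4.17-fold lower (-2.06 ± 0.146, adjusted p = 1.2e-06), with signals of 71.3, 74.2 and 83.8 in N2B27 48 hr, against 226 and 201 in ESC. Hes6, which encodes an antagonist of Hes1, was 7.06-fold higher by its brightest probe (2.82 ± 0.108, adjusted p = 1.2e-08), at 482, 617 and 655 in N2B27 48 hr, against 138 and 131 in ESC. The other probes of Hes6 rose by 2.20 and 2.14.

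**Figure D4:**
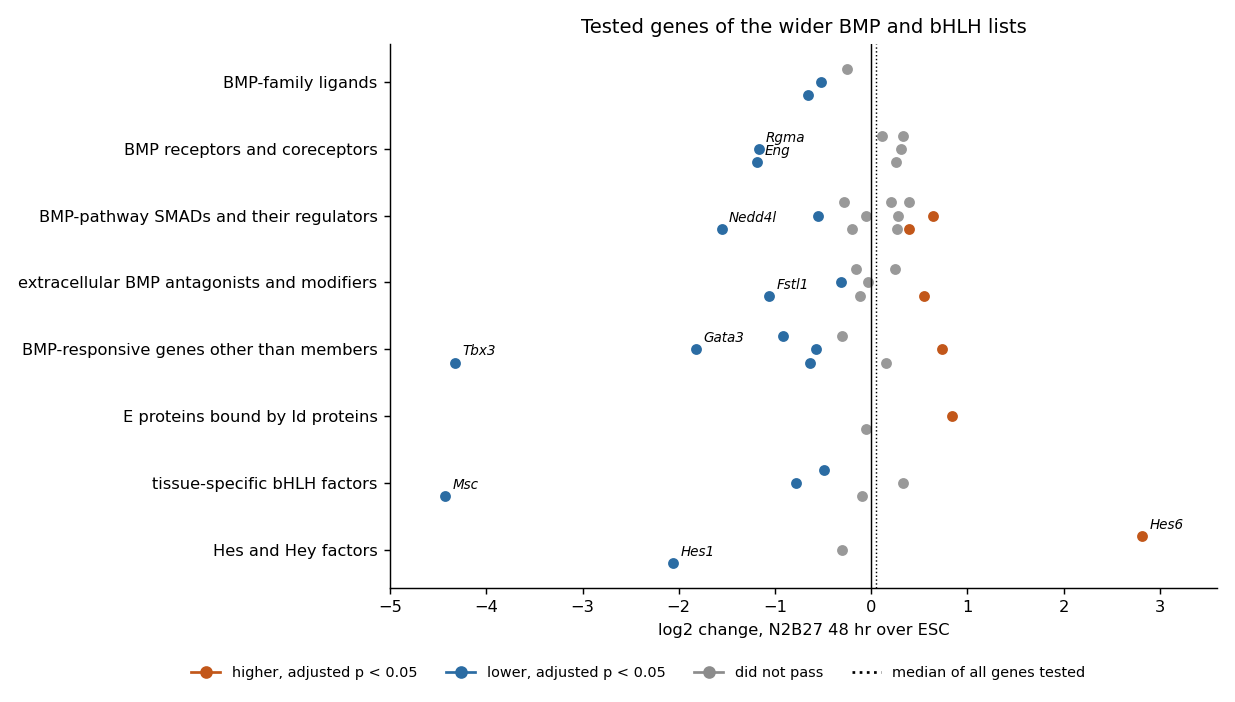
Log2 change, N2B27 48 hr over ESC, of each tested gene of the wider lists by its brightest probe, without the 10 members, coloured by direction where the adjusted p was under 0.05. Hes6 lies at 2.82, and Tbx3 and Msc lie at -4.32 and -4.43, where the N2B27 48 hr arrays were at or near background. The dotted line marks the median of all genes at 0.0488.

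Markers of other cell types also moved. Of 13 fibroblast markers with a probe 5 were tested, and 3 rose and 2 fell. By their brightest probes, 2 of the 5 (Acta2 among them) were tested only through N2B27 48 hr arrays and 1 (Fbln2) only through ESC arrays. The directions of these probes were largely fixed by the filter. The summed background-corrected signal of that list was 923 to 1301 in N2B27 48 hr and 482 to 517 in ESC. The brightest probe of Acta2, the smooth muscle actin gene, rose at least 18.3-fold. The other probes of Acta2 changed by 1.66, 0.86 and 0.35 on the log2 scale. That at 0.86 was detected on all 5 arrays, and that at 0.35 did not pass (adjusted p = 0.233). Without Acta2 the sum was 514 to 553 in N2B27 48 hr and 450 to 483 in ESC. The collagen genes Col1a1, Col1a2 and Col3a1, which are on that list, were detected on no array. The sum over the trophoblast markers, which include Gata3, was 353 to 405 in N2B27 48 hr and 1911 to 1944 in ESC, and without the AP-2 gene Tfap2c it was 299 to 356 in N2B27 48 hr and 263 to 271 in ESC, with 2 of 5 tested genes higher and 3 lower and with Elf5, Eomes and Hand1 at background on all arrays. The endoderm sum was 247 to 314 in N2B27 48 hr and 1248 to 1293 in ESC, but without the basement membrane gene Col4a1 it was 126 to 175 in N2B27 48 hr and 94.1 to 99.3 in ESC, with 1 of 5 tested genes higher, 1 lower and Gata4, Gata6 and Sox17 at background throughout. The mesoderm sum was 66.9 to 80.3 in N2B27 48 hr and 191 to 198 in ESC, and without the homeobox gene Gsc it was 61.4 to 76.8 in N2B27 48 hr and 71.5 to 77.4 in ESC, with 2 of 4 tested genes lower and 0 higher. The neural sum was 161 to 254 in N2B27 48 hr and 143 to 158 in ESC, with 1 of 3 tested genes higher and 0 lower. Without Nes, the brightest gene of that list, it was 95.2 to 143 in N2B27 48 hr and 60.3 to 66.9 in ESC. Of the 16 probes of the list 11 were detected on no array. Gata3 among the trophoblast markers and Gsc among the mesoderm markers were tested only through ESC arrays. Another trophoblast marker was tested only through N2B27 48 hr arrays. The filter largely fixed the directions of these as well. The part of such cells in the changes of the Id genes and Smad6 was not tested.

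**Figure D5:**
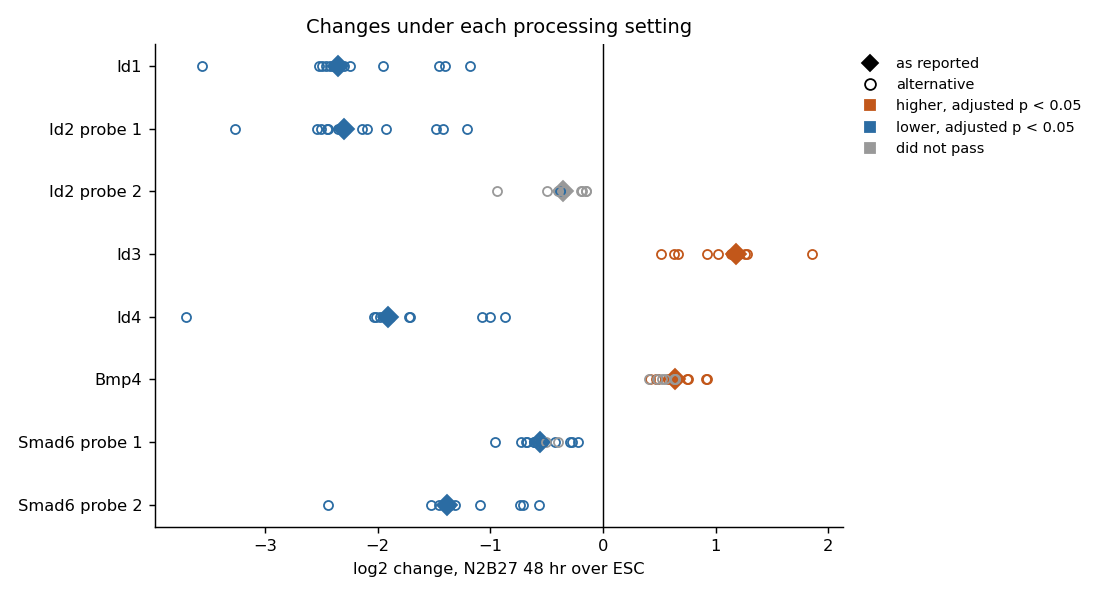
Log2 change, N2B27 48 hr over ESC, of the Id, Bmp4 and Smad6 probes as reported (diamonds) and under each alternative setting (circles), coloured by direction where the adjusted p was under 0.05 and grey otherwise. Id1 runs from -3.56 to -1.18 and Id3 from 0.51 to 1.85 with every point coloured, whereas Bmp4, between 0.41 and 0.92, has grey points.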

How the data were processed

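RNA had been extracted with Trizol and amplified to biotinylated cRNA, per the labels' protocols. The deposited table gives an average signal intensity per probe and array and a detection p-value, not normalized between arrays, per the file headers. BeadStudio is named in the submitters' processing notes, with version and background setting not given in the sources used here. The authors also deposited normalized intensity values (column medians 65.2 to 65.3), which were linear, not centred and of 1 shared distribution over the arrays, by a method not named in them.

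Background was corrected in limma 3.58.1 (R 4.3.3) by normexp, where the detection p-values served to infer the negative controls, an offset of 16 was added, and log2 values were quantile normalized. Fold changes on this log2(value + 16) scale understate changes of dim probes. Probes detected at p under 0.05 on at least 2 of 5 arrays were tested (12605 of 25697). N2B27 48 hr was compared with ESC by lmFit and eBayes with a trend, as a two-sided test, with p-values adjusted by Benjamini-Hochberg across all tested probes and a threshold of 0.05. Precision is limited by the number of arrays, and the median SE was 0.145. A gene was represented by its brightest tested probe, and symbols (23978 probes with 1, 1719 unnamed here) were updated through Entrez identifiers in a RefSeq table, where 23962 matched. Nothing in the labels says that replicates were separate cultures, so p-values cover only the spread among these samples, and that may be technical. Batches could not be examined, as no chip or scan date is named.

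Members, lists and tests were chosen with earlier results of these data known. Named are all members, per list up to 5 changed genes by size, up to 3 in the other direction and examples that did not pass, and the 3 genes most like each Id gene. Figures were drawn with matplotlib 3.10.9. Alternatives covered background correction, offset, normalization, the authors' table, the detection filter, each array left out, the replicate number as a block, the variance trend and array weights.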

Additional observations from a re-analysis of the deposited data

How the results depend on the processing

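The changes of Id1, Id2 by its bright probe, Id3 and Id4 kept their direction and passed the test in every alternative that gave a value. That of Id1 ran from -3.56 to -1.18, of Id2 from -3.27 to -1.21, of Id3 from 0.51 to 1.85 and of Id4 from -3.70 to -0.87, smallest in size without background correction and largest with an offset of 1. Requiring detection on all 5 arrays left Id1, Id2, Id4 and the Smad6 probe undetected in N2B27 48 hr untested, so that 1 member probe was called lower, and 3 BMP-responsive genes were called lower and 0 higher. Member probes called higher numbered 1 under median scaling, cyclic loess, no detection filter and no variance trend, and 4 with array weights. Median scaling called 760 genes higher, so 29.7% of changed genes rose, against 52.6%. Leaving out each array gave 1 to 3 member probes higher and 4 to 5 lower, 1244 to 2228 genes higher and 1238 to 1993 lower, and 3 to 5 BMP-responsive genes lower and 0 to 1 higher. In these fits the probes tested were kept, and a lone ESC array was given the spread of the N2B27 48 hr arrays. With the replicate number as a block, 3 member probes were higher and 5 lower, and Smad5 by its brightest probe passed (0.37, adjusted p = 0.0389). Same-numbered arrays did not deviate together (r = -0.085 and -0.028 across probes), so the numbers are not taken as pairs. Over the other named changes and alternatives, 684 kept their call, 45 lost it, 10 gained it and 0 reversed. The causes were not tested. Signal over background limits Bmpr2, the dim Id2 probe and most ligand genes.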
